A study of Mus musculus with 40 samples.

Results

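High-fat feeding after weaning was examined in the thigh skeletal muscle of sons of high-fat (HF) dams. The comparison set 10 HF_HF arrays against 10 HF_LF arrays, which were chosen by the diet fields of the labels and are 20 of the 40 arrays of the series. In these names the diet of the dam stands first and the diet of the son after weaning stands second. HF_HF males had dams on the HF diet before mating, through pregnancy and until weaning, and ate the HF diet themselves once weaned. HF_LF males also had dams on the HF diet but ate the low-fat (LF) diet once weaned. Both groups were male C57BL/6J mice of 9 weeks, killed after a short fast, with no transgene or drug, and both shared the exposure to the HF diet before birth and through suckling. Each diet mixes a change in fat with a change in carbohydrate, so the comparison is of whole diets. The sons of LF dams, in the groups LF_HF and LF_LF with 10 arrays each, serve here only to test whether an effect differed by the diet of the dam. Each array carried total RNA from the muscle of 1 animal and gave fluorescence intensities on a linear scale. Of the 16593 named genes of the probe table, 8690 were bright enough to be tested.

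Skeletal muscle takes up fatty acids from the blood, binds them to carrier proteins, activates them to acyl-CoA and passes them through the carnitine shuttle into mitochondria, where beta-oxidation shortens them to acetyl-CoA. Fatty acids are also ligands of the PPAR nuclear receptors, which raise the transcription of many genes of these steps. Muscle fibres further differ in type: slow fibres burn mostly fat and carry their own set of contractile proteins, whereas the mouse thigh is made up mainly of fast fibres.

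The arrays of both groups correlated at 0.969 to 0.995. The labelled tissue was checked with skeletal muscle markers, of which all 15 on the array were bright enough to be tested, with a summed intensity from 303714 to 330848 in HF_HF and from 277008 to 337356 in HF_LF. The animals came from 6 cages, of which 3 held both diets (7 HF_HF and 6 HF_LF arrays). Dim probes also split the arrays into 2 sets, for which no label gives a reason. The first set held 5 HF_HF and 6 HF_LF arrays, and the second held 5 HF_HF and 4 HF_LF arrays. A model that also held the diet gave 2408 probes whose intensity depended on the set. Animals of a cage may share a dam, which the labels do not give, so p-values measure the spread between these animals, and the number of arrays limits their precision.

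A total of 45 of the 12467 tested probes (0.361%) was called at an adjusted p below 0.05, which is the threshold for every call below. Of these, 28 (0.225% of those tested) were higher and 17 (0.136%) were lower in HF_HF than in HF_LF. They covered 37 genes, 24 higher and 13 lower, of which 1 has a clone name only, and 3 called probes had no gene symbol. Most changes were small, with a median fold of 1.29 and a range from 1.12-fold to 2.90-fold. These sizes hold for intensities with no background removed. With the 5th percentile of each array subtracted, the log2 change of the dim Cds1 probe was 0.60 in place of 0.23. That of the bright Fabp3 probe stayed at 0.81. In 6 called probes, 3 higher and 3 lower, no HF_HF array overlapped any HF_LF array, and this held for 0.0481% of all tested probes (0.0241% higher and 0.0241% lower). In whole muscle, fewer cells of a type and less RNA per cell cannot be told apart.

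Genes that handle fatty acids were among those that rose in HF_HF muscle, with Acot1 at the head. Acot1, which cleaves acyl-CoA to free fatty acid and CoA in the cytosol, had intensities from 240.3 to 659 (median 371) in HF_HF and from 105 to 285 (median 167) in HF_LF. Of the 10 HF_HF arrays, 9 lay above every HF_LF array. The log2 difference was 1.25 ± 0.20 (SE, adjusted p = 0.00397), a 2.37-fold rise, and a dimmer second probe also rose, by 0.44 ± 0.08 (adjusted p = 0.0236). Acot2, its mitochondrial counterpart, ran from 138 to 243 (median 175) in HF_HF and from 96.7 to 154 (median 118) in HF_LF, and rose by 0.57 ± 0.10 (adjusted p = 0.0119). The groups overlapped, with 8 HF_HF arrays above all HF_LF arrays. Both genes are near-identical neighbours on chromosome 12, so a probe for one can bind transcripts of the other and their separate changes are uncertain.

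The promoters of the Acot pair are shown because both genes moved together. Each runs from 250 bases before to 50 bases after the annotated start, 5′ to 3′, and is taken from RefSeq for assembly GRCm38.p6, at chr12:84009252-84009551 (plus strand) for Acot1 and chr12:83987611-83987910 (plus strand) for Acot2.
Acot1: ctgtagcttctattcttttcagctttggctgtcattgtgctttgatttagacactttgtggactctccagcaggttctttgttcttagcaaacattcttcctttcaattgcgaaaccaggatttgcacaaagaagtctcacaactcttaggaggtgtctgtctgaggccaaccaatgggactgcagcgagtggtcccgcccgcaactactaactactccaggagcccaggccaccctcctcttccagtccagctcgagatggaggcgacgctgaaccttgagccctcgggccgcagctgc
Acot2: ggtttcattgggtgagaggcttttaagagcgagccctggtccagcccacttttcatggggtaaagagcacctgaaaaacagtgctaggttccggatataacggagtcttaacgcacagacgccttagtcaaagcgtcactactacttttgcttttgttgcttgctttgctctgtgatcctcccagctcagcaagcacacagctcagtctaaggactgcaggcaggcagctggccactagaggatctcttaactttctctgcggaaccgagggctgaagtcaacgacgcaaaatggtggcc
Both windows were searched on both strands for the direct repeat of AGGTCA with a gap of 1 base, to which PPAR and its partner RXR are known to bind. Nothing is in capitals because neither window held it, also with up to 2 mismatches allowed, and 3.86% of all 32851 promoter windows held it at that tolerance. Of the 30 called genes that matched a promoter, 1 (Hspd1) held it at that tolerance. Sequence outside these windows was not searched.

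**Figure D1:**
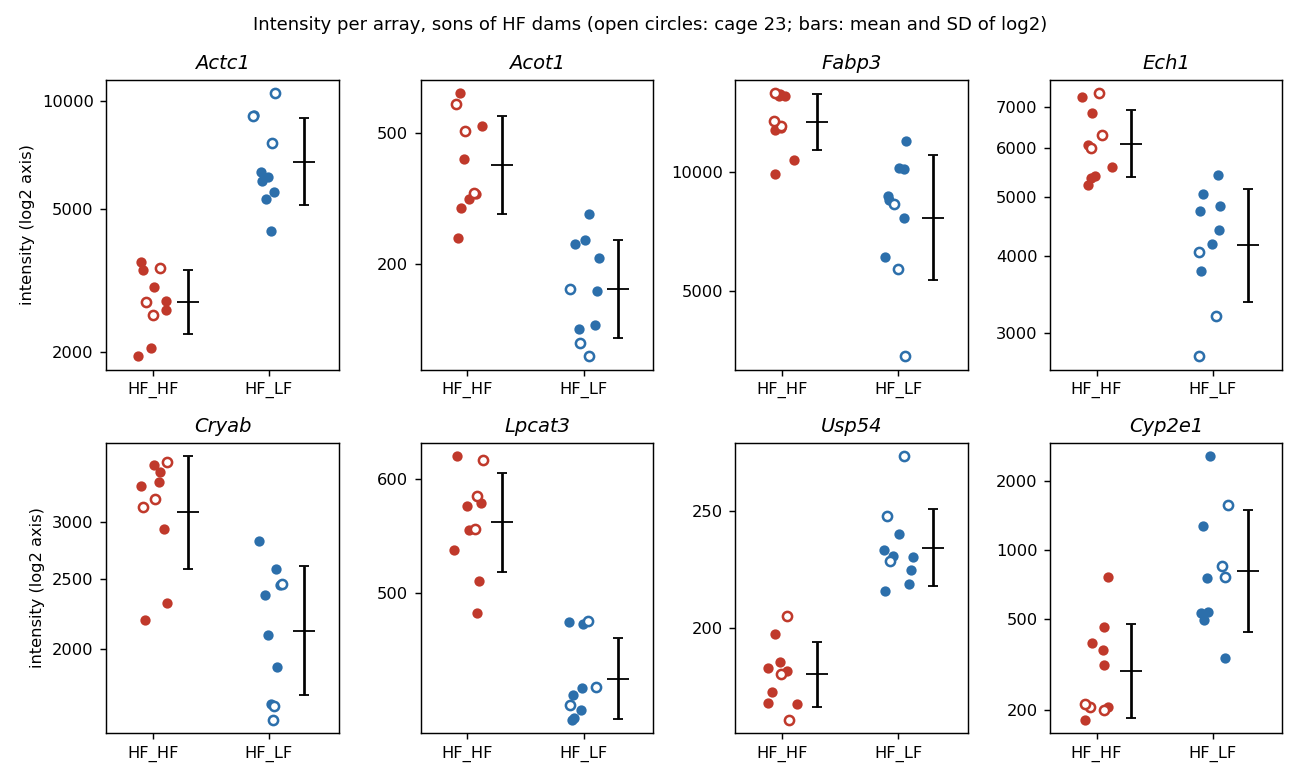
Intensity per array on a log2 axis for 8 called genes in HF_HF (red, left) and HF_LF (blue, right), with the mean and SD of log2 values as black bars and the animals of cage 23 as open circles. No HF_HF array overlaps an HF_LF array for Actc1, Lpcat3 and Usp54, and the HF_LF arrays lowest for Fabp3 and Ech1 come from cage 23.

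Fabp3, the carrier protein of fatty acids in heart and muscle, ran from 9903 to 15882 (median 13279) in HF_HF and from 3419 to 11986 (median 8411) in HF_LF. All but 2 of the HF_HF arrays lay above the highest HF_LF array. The log2 difference was 0.81 ± 0.16 (adjusted p = 0.0261), a 1.75-fold rise. Dbi, the acyl-CoA binding protein, ranged from 5369 to 8386 (median 6147) in HF_HF and from 3952 to 5683 (median 5088) in HF_LF and rose by 0.38 ± 0.08 (adjusted p = 0.0261), with 8 HF_HF arrays above all HF_LF arrays. Of its other probes, 1 gave 0.28 and 1 gave 0.06, and neither passed the test. In the list of fatty acid uptake and activation these were the 2 called members, both higher, among 12 tested, whereas 0.253% of all 8690 genes were called higher. The median log2 change of the list was 0.12, beside 0.00 over all tested genes, and 11 of its 12 members had a positive difference, as did 49.3% of all genes (50.7% had a negative one).

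Ech1, an isomerase that lets mitochondria oxidise unsaturated fatty acids, was the called member of mitochondrial beta-oxidation. Its intensities ran from 5237 to 7394 (median 6040) in HF_HF and from 2745 to 5440 (median 4308) in HF_LF. All but 3 HF_HF arrays lay above every HF_LF array, and the log2 difference was 0.55 ± 0.10 (adjusted p = 0.0223). Among the 18 members tested, 1 was called higher and 0 lower, 16 had a positive difference, and 11 had an unadjusted p below 0.05, against 11.4% of all probes. The median log2 change was 0.23 over the list and 0.13 without cage 23. Members short of the threshold, chosen as examples after their values were seen here and in the lists that follow, included Acadm, the medium-chain acyl-CoA dehydrogenase, at 7784 ± 844 in HF_HF and 6307 ± 907 in HF_LF (SD, n = 10 each, adjusted p = 0.0973), and the thiolase Acaa2 at 1299 ± 211 in HF_HF and 938 ± 264 in HF_LF (adjusted p = 0.118). The rate-controlling step of entry into mitochondria did not pass the test: Cpt1b, the muscle carnitine palmitoyltransferase, differed by 0.13 ± 0.07 at its brightest probe (adjusted p = 0.536) and by 0.23 at a second.

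Peroxisomes shorten fatty acids too long for mitochondria, and Pex11a promotes their division. Pex11a ran from 458 to 585 (median 517) in HF_HF and from 314 to 473 (median 393) in HF_LF, and rose by 0.40 ± 0.07 (adjusted p = 0.0142), with 8 HF_HF arrays above all HF_LF arrays. At a second probe, which rose by 0.41, the groups did not overlap, and a further, dim probe gave 0.19 and was not called. Pex11a was the 1 called gene among 13 tested genes of peroxisomal fat oxidation, whose median log2 change was 0.03. Of 18 tested genes known to respond to PPARs in muscle, 4 were called higher (Acot1, Acot2, Pex11a and Fabp3) and 0 lower. Of all 8690 genes, 0.253% were called higher and 0.127% lower. The 4 genes are those described above, and the values of Acot1 and Acot2 may not be separate. The median log2 change of this list was 0.35, or 0.18 without cage 23.

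Other genes that are often read as markers of fat use in muscle were not called. Pdk4, the kinase that shuts off pyruvate dehydrogenase, ran from 4833 to 11239 (median 6869) in HF_HF and from 5258 to 8823 (median 6940) in HF_LF, with a log2 difference of -0.03 ± 0.12. The groups overlapped almost fully. The uncoupling protein Ucp3 differed by -0.04 ± 0.11, the lipid droplet coat protein Plin2 by 0.10 ± 0.07, lipoprotein lipase (Lpl) by 0.25 ± 0.14 and the coactivator Ppargc1a by 0.17 ± 0.08. Plin5, which tethers droplets to mitochondria, came nearest with 0.66 ± 0.16 (adjusted p = 0.0822), followed by the lipase inhibitor Angptl4 with 0.49 ± 0.15 (adjusted p = 0.183). On the side of glucose, the transporter Slc2a4 differed by -0.14 ± 0.06 (adjusted p = 0.357) and hexokinase Hk2 by 0.06 ± 0.05. The desaturase Scd1 differed by -0.69 ± 0.40 with wide overlap, from 680.4 to 8274 in HF_HF and from 1369 to 10524.5 in HF_LF. The uptake receptor Cd36, the receptors Ppara and Ppard, the lipogenic enzyme Fasn and the growth inhibitor Mstn were too dim on this array to be tested.

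Lpcat3, which adds polyunsaturated fatty acids to phospholipids, ran from 485 to 622 (median 564) in HF_HF and from 409 to 478 (median 428) in HF_LF. The groups did not overlap, and the log2 difference was 0.36 ± 0.05 (adjusted p = 0.00178), although a dimmer probe differed by 0.03 and was not called. Cds1, which makes CDP-diacylglycerol, rose by 0.23 ± 0.04 (adjusted p = 0.0162), with medians of 106 in HF_HF and 90.2 in HF_LF. Plpp1, which removes phosphate from phosphatidic acid and related lipids, rose by 0.28 ± 0.06 (adjusted p = 0.0304) at its brightest probe, while dimmer ones gave 0.23 and 0.03 and were not called. It was picked out after its values were seen, as were Sync, Ctnna3, Pdlim5, Hspd1 and Zfp612 below.

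Actc1, the alpha-actin of the heart that skeletal muscle expresses mainly before birth, gave the smallest p of all tested genes and fell. Its intensities ran from 1950 to 3559 (median 2775) in HF_HF and from 4355 to 10524.5 (median 6254) in HF_LF. The groups did not overlap. The log2 difference was -1.29 ± 0.14 (adjusted p = 5.16e-05), a 2.45-fold fall. A second, dimmer probe fell by 1.54 ± 0.24 (adjusted p = 0.00397), with 9 of 10 HF_HF arrays below all HF_LF arrays. Acta1, the main actin of adult skeletal muscle and a close paralogue, had 26725 ± 2765 in HF_HF and 26037 ± 4474 in HF_LF (SD, n = 10 each), and its log2 difference of 0.05 ± 0.09 did not pass the test.

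The Actc1 promoter is shown because this gene gave the smallest p of the comparison. It lies at chr2:114052826-114053125 (minus strand, GRCm38.p6, RefSeq). Capitals mark a CArG box, the element bound by serum response factor at actin genes, which begins 47 bases before the annotated start, and a TATAAA, searched on the sense strand, which begins 34 bases after that start.
Actc1: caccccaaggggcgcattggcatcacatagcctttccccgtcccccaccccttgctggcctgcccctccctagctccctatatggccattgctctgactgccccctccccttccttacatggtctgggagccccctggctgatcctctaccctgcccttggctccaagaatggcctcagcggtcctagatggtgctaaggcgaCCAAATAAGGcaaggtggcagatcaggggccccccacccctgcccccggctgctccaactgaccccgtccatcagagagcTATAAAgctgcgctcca
Of all promoter windows, 1.63% held a CArG box and 8.32% held TATAAA on the sense strand. Among the 30 called genes that matched a promoter, out of 37, Actc1 was the 1 gene with a CArG box.

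Some chaperones and cytoskeletal proteins of the fibre also changed. Cryab, a small heat shock protein that protects desmin and actin filaments, ran from 2193 to 3634 (median 3300) in HF_HF and from 1598 to 2825 (median 2239) in HF_LF. The groups overlapped, with 8 HF_HF arrays above all HF_LF arrays, and the rise was 0.54 ± 0.11 (adjusted p = 0.0305). It was the 1 called gene of 8 small heat shock genes tested, of which 7 had a positive difference. The remaining one, Hspb3, had 727 ± 68.2 in HF_HF and 862 ± 72.9 in HF_LF (adjusted p = 0.0733). Pdlim5, a scaffold protein of the Z-disc, rose by 0.32 ± 0.07 at its brightest probe (adjusted p = 0.0482) and by 0.37 at a second, whereas 2 dim probes gave -0.09 and 0.02. Sync, or syncoilin, an intermediate filament protein, rose by 0.28 ± 0.05 (adjusted p = 0.0236), and Ctnna3, a catenin of cell contacts, by 0.28 ± 0.06 (adjusted p = 0.0251).

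Hspd1, the mitochondrial chaperonin HSP60, gave different answers at its probes. At the dimmer probe, intensities ran from 552 to 688 (median 598) in HF_HF and from 384 to 550.1 (median 509) in HF_LF, with no overlap and a log2 difference of 0.30 ± 0.06 (adjusted p = 0.0272). At the brightest probe, the ranges overlapped and the difference was 0.03 ± 0.13. One of its 2 annotated promoter windows, at chr1:55087883-55088182 (minus strand, GRCm38.p6, RefSeq), is shown with the heat shock element in capitals (GAA, any 2 bases, TTC, any 2 bases, GAA). The element was searched on both strands. The other window held no match, and in the window shown 2 matches overlap, beginning 144 and 139 bases before the annotated start.
Hspd1: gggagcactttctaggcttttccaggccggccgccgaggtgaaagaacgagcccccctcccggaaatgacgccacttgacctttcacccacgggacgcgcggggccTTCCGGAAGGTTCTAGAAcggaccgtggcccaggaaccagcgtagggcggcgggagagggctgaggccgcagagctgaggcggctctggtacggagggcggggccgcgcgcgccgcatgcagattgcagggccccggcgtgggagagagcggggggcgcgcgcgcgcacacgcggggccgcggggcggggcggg
Of the 30 called genes with a promoter, Hspd1 and Sync held this element in at least 1 window. Counted by window and not by gene, 0.603% of all promoter windows held it. A match describes letters and not binding.

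Besides Actc1, 12 named genes fell. Cyp2e1, a monooxygenase of ethanol and ketones, had the largest fall among these, with intensities from 181 to 760.3 (median 263) in HF_HF and from 337 to 2556 (median 759) in HF_LF. Of the HF_HF arrays, 6 lay below all HF_LF arrays, and the log2 difference was -1.45 ± 0.31 (adjusted p = 0.0380). Cyp2e1 is also expressed in fat. Of 14 white adipocyte markers 8 were tested, 0 were called, and their summed intensity ran from 1120 to 4408 (median 1399) in HF_HF and from 1229 to 4465 (median 1822) in HF_LF. The HF_LF array highest in these markers, replicate 2, was also highest in Cyp2e1. In HF_HF, replicates 1 and 7 were highest in these markers and also in Cyp2e1 (760.3 and 460.7). Without the 3 arrays highest in these markers, the Cyp2e1 difference was -1.51 (adjusted p = 0.0121), and with the marker score as a covariate it was -1.28 (adjusted p = 0.00175).

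Grb10, an adaptor protein that dampens insulin receptor signalling, ran from 384 to 645 (median 474) in HF_HF and from 491 to 733 (median 633) in HF_LF, and fell by 0.40 ± 0.08 (adjusted p = 0.0251). It was the 1 called gene among 21 tested genes of insulin signalling and glucose transport, whose median log2 change was 0.06. Hbegf, a growth factor of the EGF family, fell by 0.44 ± 0.09 (adjusted p = 0.0251), with medians of 205 in HF_HF and 277 in HF_LF and overlapping groups. Castor2, a relative of the arginine sensor of the mTORC1 pathway, fell by 0.31 ± 0.06 (adjusted p = 0.0229), while a dimmer probe gave 0.02.

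Usp54, a member of the ubiquitin-specific protease family, ran from 168 to 205 (median 184) in HF_HF and from 215 to 277 (median 229) in HF_LF. The groups did not overlap, and the fall was 0.35 ± 0.05 (adjusted p = 0.00155). Neu2, the cytosolic sialidase, fell by 0.43 ± 0.09 (adjusted p = 0.0261), and Tst, a mitochondrial thiosulfate sulfurtransferase, by 0.33 ± 0.07 (adjusted p = 0.0261). Ndufaf5, which helps to assemble complex I, fell by 0.32 ± 0.07 (adjusted p = 0.0440), while 0 of 33 tested complex I subunits were called. Rasl11b, a small GTPase, was called at -0.37 at its dimmer probe, while its brightest gave -0.35 (adjusted p = 0.0909). The nucleoporin Nupl1 was called at -0.27 at a dimmer probe, while its brightest gave -0.12 (adjusted p = 0.392). Smaller falls were called for the zinc finger gene Zfp612 at -0.25, where the groups did not overlap, and for the histone H4c12 at -0.30. Histone H4 genes are near-identical copies, so the H4c12 value is uncertain as to the gene.

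Among other genes that rose, Rab15, a GTPase of endosome recycling, ran from 165 to 396 (median 276) in HF_HF and from 104 to 252 (median 154) in HF_LF. The groups overlapped, with 6 HF_HF arrays above all HF_LF arrays, and the log2 difference was 0.76 ± 0.15 (adjusted p = 0.0251). Snai3, a repressor of the Snail family, rose by 0.67 ± 0.15 (adjusted p = 0.0482), and Srxn1, which repairs oxidised peroxiredoxins, was called at 1 probe (0.39 ± 0.09, adjusted p = 0.0482) but not at its brightest (0.30, adjusted p = 0.262) or its dimmest (0.15). Fbp2, the fructose-bisphosphatase of muscle, ran from 1459 to 2486 (median 1812) in HF_HF and from 985 to 1600 (median 1353) in HF_LF and rose by 0.47 ± 0.10 (adjusted p = 0.0261). It was the 1 called member among 27 tested genes of glycolysis and glycogen, of which 15 had a positive difference. The rises of Rrad, Mad2l1bp, Crim1, Pmm1 and Gpr157, picked out after their values were seen, lay between 0.21 and 0.35.

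**Figure D2:**
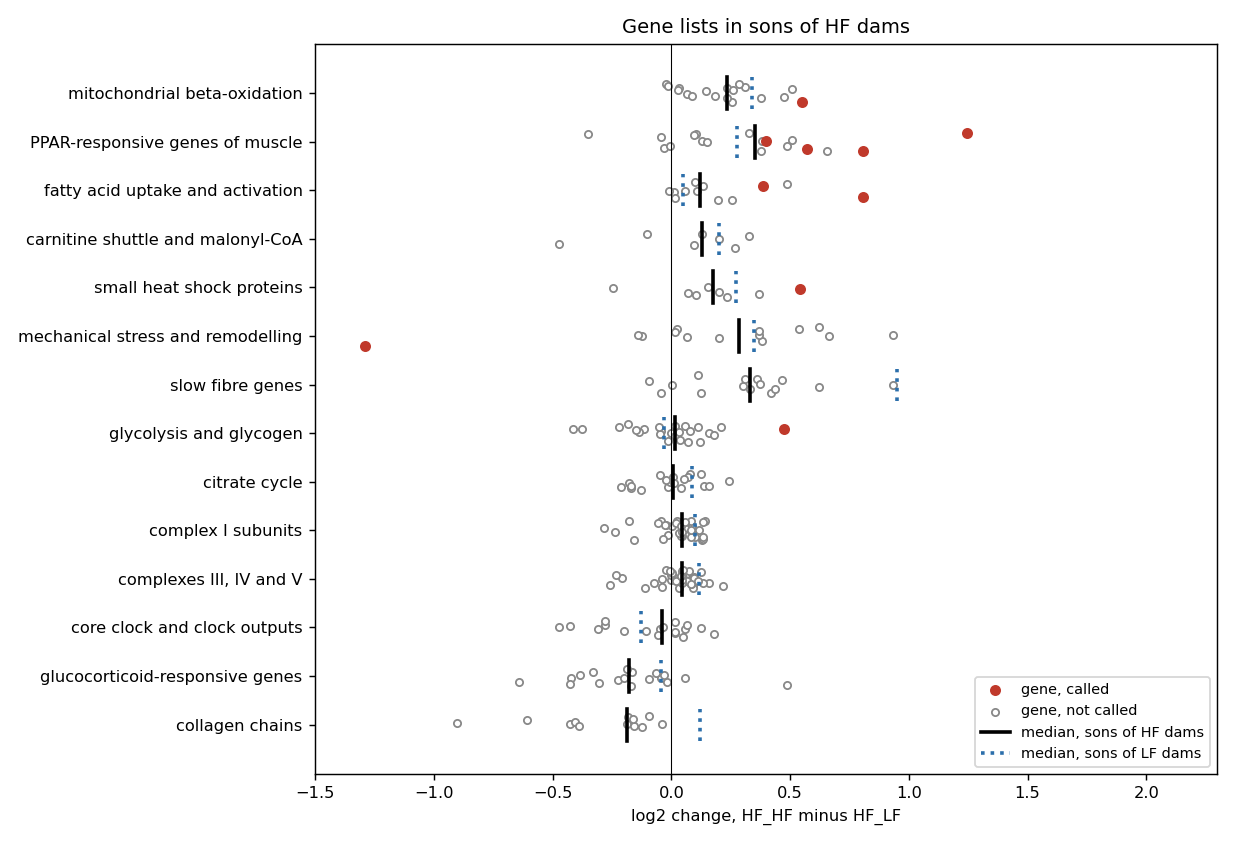
Log2 change (HF_HF minus HF_LF) of each tested gene in 14 gene lists, with called genes in red, the list median as a black line and the list median in sons of LF dams as a dotted blue line. Called genes lie to the right in the fat-handling lists, and no collagen chain lies above 0. Actc1 lies far to the left among mechanical stress genes, of which 11 of 14 were higher in the mean (median 0.28, or 0.08 without cage 23).

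The lists of energy metabolism beyond fat stayed near 0. The median log2 change was 0.01 over 19 citrate cycle genes, 0.04 over 33 complex I subunits and 0.04 over 36 subunits of complexes III, IV and V, with 0 called genes in each. Over all 37 pathway lists, 9 held a called gene.

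In 2 pathway lists, collagen chains and glucocorticoid-responsive genes, nearly all members were lower in the mean in HF_HF although 0 were called. Of all tested genes 50.7% were lower in the mean, and of all tested probes 11.4% had an unadjusted p below 0.05. All 12 tested collagen chains had a negative difference, with a median of -0.19. Col3a1, a fibrillar collagen of loose connective tissue, had 204 ± 93.4 in HF_HF and 389 ± 172 in HF_LF (adjusted p = 0.101), and Col6a1, a chain of the collagen microfibrils around fibres, had 955 ± 182 in HF_HF and 1245 ± 209 in HF_LF (SD, n = 10 each, adjusted p = 0.128). Of the 12 collagen chains 5 had an unadjusted p below 0.05. The collagen median was -0.35 within the first array set and -0.015 within the second. Of 18 glucocorticoid-responsive genes 16 had a negative difference, with a median of -0.18 (-0.09 within the cages that held both diets). At an unadjusted p below 0.05, 8 were lower and 1 was higher, namely Angptl4 (0.49, adjusted p = 0.183). Examples of lower members were the clock gene Per1 at 607 ± 136 in HF_HF and 804 ± 80.5 in HF_LF (adjusted p = 0.0544), and the kinase Sgk1 at 5613 ± 910 in HF_HF and 6884 ± 585 in HF_LF (adjusted p = 0.0822). Among 18 core clock genes and clock outputs, 10 were lower in the mean and 6 of them had an unadjusted p below 0.05, Per1 included.

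Slow fibre genes were higher in the mean in HF_HF, but not without 1 cage. Of 15 tested members 13 had a positive difference and 0 were called, with a median log2 change of 0.33. The muscle LIM protein Csrp3 had 2101 ± 1037 in HF_HF and 1346 ± 951 in HF_LF (SD, n = 10 each, adjusted p = 0.400). The mean log2 deviation of the list was lowest in 1 HF_LF array of cage 23, replicate 7, at -1.93. Without cage 23 the list median was -0.18, and within the 3 cages that held both diets it was 0.78. The slow myosin Myh7 differed by 0.13 ± 0.29, or by -0.23 without cage 23, and the fast myosin Myh4 by -0.36 ± 0.10 (adjusted p = 0.149). With the slow fibre score as a covariate, 37 of the 45 called probes were called.

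Markers of other cells in the tissue gave 0 called genes in all 12 lists, and so did the skeletal muscle list. All 5 tested nerve and Schwann cell markers were lower in the mean in HF_HF (median log2 change -0.08), with 0 at an unadjusted p below 0.05. All 5 tested brown adipocyte markers were higher (median 0.17), with 3 at that threshold, against 11.4% of all probes. The markers Ucp1, Dio2 and Elovl3 of that list were too dim to be tested. Those tested summed to between 27008 and 31655 (median 30234) in HF_HF and between 25806 and 32408 (median 27715) in HF_LF. The neutrophil list had 3 tested genes of 10, all higher in the mean (median 0.35), with 2 at that threshold. Their summed intensity ran from 260 to 1039 (median 368) in HF_HF and from 241 to 479 (median 265) in HF_LF. The highest neutrophil score came from HF_HF replicate 1, which was also the HF_HF array highest in white adipocyte and macrophage markers. Macrophage markers summed to between 4195 and 8241 (median 5138) in HF_HF and between 4538 and 7039 (median 5294) in HF_LF. Fibroblast markers summed to between 15006 and 18956 (median 17160) in HF_HF and between 14841 and 21634 (median 17917) in HF_LF, and their part in the collagen values was not tested. Without the 3 arrays highest in adipocyte markers (HF_HF replicates 1 and 7, HF_LF replicate 2), 34 probes were called, 15 higher and 19 lower, of which 20 were among the 45.

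**Figure D3:**
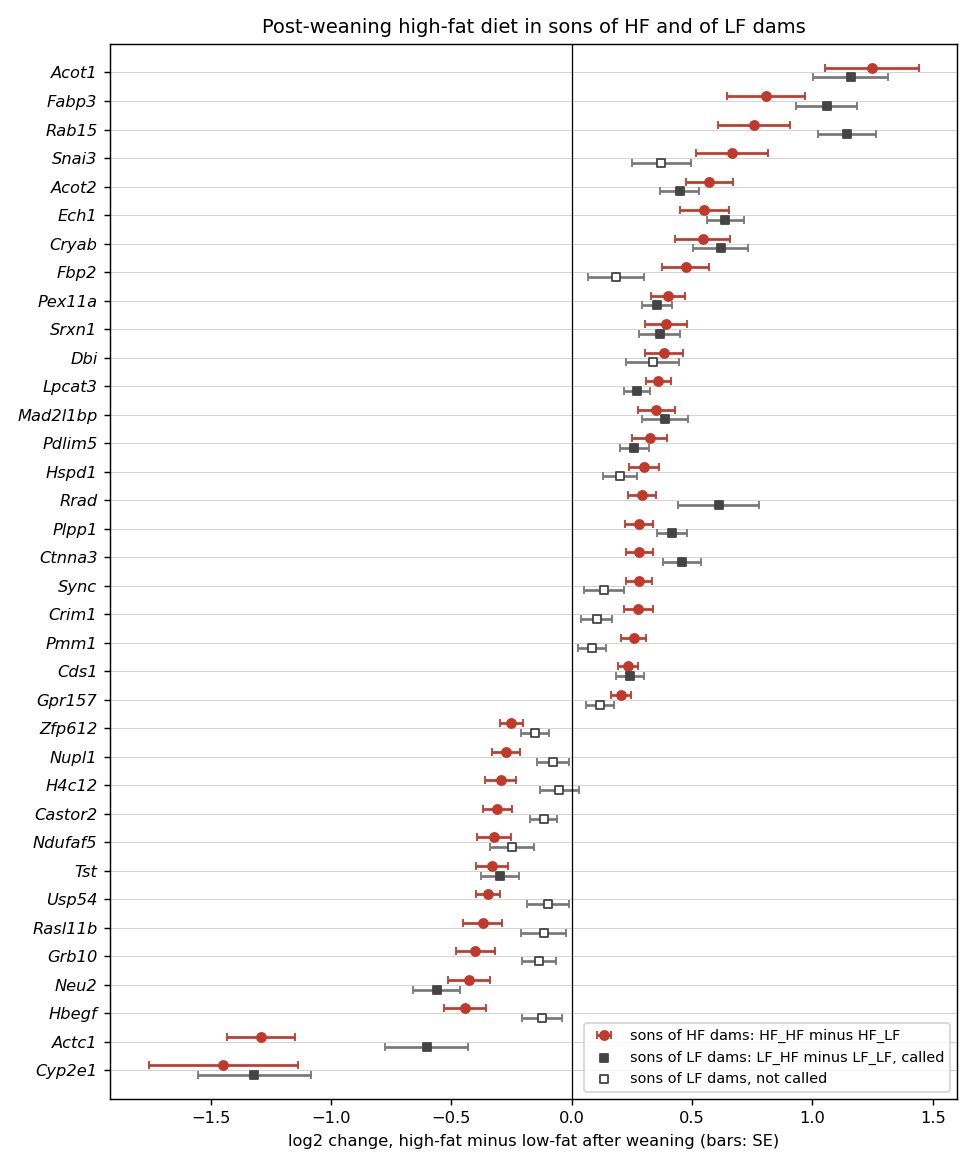
Log2 change with SE for the 36 called genes with a gene name, in sons of HF dams (red circles, HF_HF minus HF_LF) and in sons of LF dams (squares, LF_HF minus LF_LF, filled where called). The direction is the same for every gene drawn, and Actc1 lies at -1.29 after HF dams and at -0.60 after LF dams.

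Whether the response differed by the diet of the dam was tested with the interaction of both diets over all 40 arrays. In limma 0 of the 12467 probes (0%) were called, and 647 (5.19%) had an unadjusted p below 0.05. In sons of LF dams, which share no array with this pair, 521 probes (4.18%) were called, 299 (2.4%) higher and 222 (1.78%) lower in LF_HF. Of the 45 probes called in sons of HF dams, 43 had the same direction there and 23 (51.1%) were also called, 19 higher and 4 lower. These 23 were 4.41% of the 521. Of all tested probes 61.0% had the same direction in both pairs.

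For beta-oxidation 1 of 18 genes was called after HF dams and 10 after LF dams, with median log2 changes of 0.23 and 0.34 and 0 members at an unadjusted interaction p below 0.05. For PPAR-responsive genes 4 of 18 were called after HF dams and 10 after LF dams, with medians of 0.35 and 0.28 and again 0 such members. Of 7 genes of the carnitine shuttle, 0 were called after HF dams and 3 after LF dams. Acot1 rose by 1.25 ± 0.20 after HF dams and by 1.16 ± 0.15 after LF dams, a difference of 0.09 ± 0.26 (unadjusted p = 0.739). Fabp3 rose by 0.81 ± 0.16 after HF dams and by 1.06 ± 0.13 after LF dams, and that difference of -0.25 ± 0.22 did not pass the test either. Angptl4 differed by 0.49 after HF dams and by -0.04 after LF dams, a difference of 0.52 ± 0.26 (unadjusted p = 0.0517).

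Actc1 fell by 1.29 after HF dams and by 0.60 ± 0.17 after LF dams (adjusted p = 0.0490), a difference of -0.69 ± 0.23 (unadjusted p = 0.00540, adjusted p = 0.908). In LF_HF its intensities ran from 2121 to 7722 (median 3765), and in LF_LF from 4478 to 8155 (median 6195).

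The 45 called probes were chosen by HF_HF minus HF_LF, which is part of the interaction, so low interaction p-values were favoured among them in advance. Of these 45 probes, 11 had an unadjusted interaction p below 0.05, and 10 of the 11 were lower in HF_HF. They included Usp54, Hbegf, Grb10 and Castor2, whose changes after LF dams were -0.10, -0.12, -0.14 and -0.12, none of them called. Their adjusted interaction p was 0.908 in each case. Collagen chains gave an unadjusted interaction p below 0.05 in 7 of 12 members, against 5.19% of all probes, with 0 called. Their median log2 change was -0.19 after HF dams and 0.12 after LF dams, where 11 of 12 had a positive difference. The groups of LF dams were unevenly spread over the array sets, with 4 LF_HF and 2 LF_LF arrays in the first and 6 and 8 in the second. The interaction was also fitted with a term for the array set, but the collagen values of that fit are not given here.

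The smallest interaction p belonged to Tppp3, a microtubule-associated protein. It ran from 244 to 287 (median 266) in HF_HF and from 258 to 403 (median 298) in HF_LF, and from 246 to 388 (median 310.1) in LF_HF and from 223 to 288 (median 247) in LF_LF. The interaction was -0.48 ± 0.10 (unadjusted p = 1.30e-05, adjusted p = 0.162). Next came Dhdh, a dihydrodiol dehydrogenase, with 0.37 ± 0.10, Dhrsx with -0.20 ± 0.05, Fam171b with -0.26 ± 0.07 and the lipoprotein receptor Vldlr with 0.32 ± 0.09, each with an adjusted p of 0.908.

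The labels also give the size of each animal. A later weight, filed in the labels as taken at weaning although it exceeded the weight at 3 weeks by 9.77 g or more, ran from 28.4 to 34.1 g in HF_HF and from 20.4 to 25.8 g in HF_LF. The groups did not overlap. Its mean was 30.5 ± 1.68 g in HF_HF and 23.7 ± 1.81 g in HF_LF (SD, n = 10 each), a difference of 6.78 ± 0.78 g (SE, permutation test, adjusted p = 5e-05, which is the smallest that the resamples allow after adjustment). Body length was 103 ± 1.06 mm in HF_HF (n = 8) and 98 ± 2.05 mm in HF_LF (n = 10), a difference of 4.63 ± 0.75 mm (exact permutation test, two-sided, adjusted p = 0.000152). Weight at 3 weeks, at weaning onto the diets, was 11.6 ± 1.25 g in HF_HF and 10.9 ± 0.84 g in HF_LF (permutation test, adjusted p = 0.205). Blood glucose was 188.5 ± 42.8 mg/dl in HF_HF and 194 ± 24.0 mg/dl in HF_LF (permutation test, adjusted p = 0.737). The part of body size in the gene changes was not tested.

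**Figure D4:**
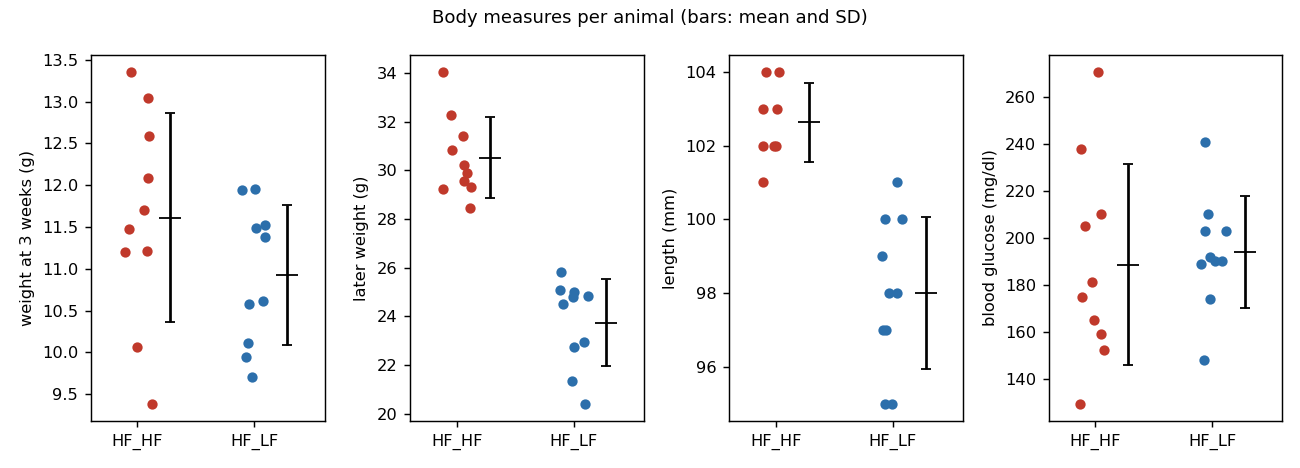
Weight at 3 weeks, later weight, length and blood glucose per animal in HF_HF (red, left) and HF_LF (blue, right), with mean and SD. The later weights do not overlap, whereas the values of weight at 3 weeks and of blood glucose do.

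How far each result rests on single animals or cages was examined by leaving them out. Between 10 and 63 probes were called when 1 array was left out. The count moved by over 1.5 times without HF_LF replicate 5 (10), HF_HF replicate 4 (16), HF_LF replicate 2 (25) and HF_HF replicate 9 (27). HF_LF replicate 5 and HF_HF replicate 4 both belong to cage 23. Of the 36 genes with a name, 7 (Actc1, Acot1, Acot2, Lpcat3, Usp54, Pex11a and Cds1) were called in all 20 refits, and 11 in fewer than 10 of them, Cyp2e1, Cryab, Snai3, Srxn1 and Pdlim5 among these. Fabp3 lost its call without HF_HF replicate 4 or HF_LF replicate 5, and Ech1 without HF_LF replicate 5.

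**Figure D5:**
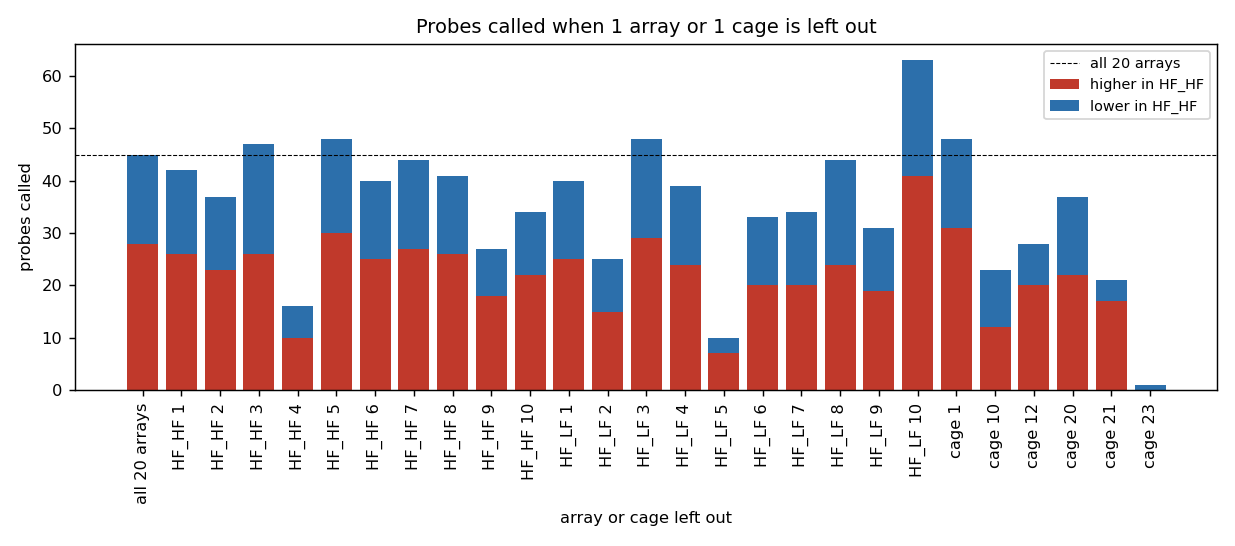
Number of probes called, higher in HF_HF (red) and lower in HF_HF (blue), with all 20 arrays and with 1 array or 1 cage left out. The bars run from 1 without cage 23 to 63 without HF_LF replicate 10, and the dashed line marks the 45 calls of the full comparison.

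Cage 23 held 3 HF_HF and 3 HF_LF animals, and without it 1 probe was called, that of Actc1 (-1.14, adjusted p = 0.00641). The 45 probes were chosen in these same arrays, so keeping their direction in subsets or means of the arrays was favoured in advance. All 45 kept their direction without cage 23 and had an unadjusted p below 0.05 there. Without it Acot1 rose by 0.98 (adjusted p = 0.206), Fabp3 by 0.57 (adjusted p = 0.214) and Ech1 by 0.36 (adjusted p = 0.219). Within the 3 cages that held both diets, all 45 probes again had the same direction and 8 were called, among them Actc1 (-1.28, adjusted p = 0.00613), Acot1 (1.39, adjusted p = 0.0160), Lpcat3 (0.41) and Cryab (0.69), in a total of 19 calls (0.152%). In each array set taken alone, too, the direction of all 45 held, and all 45 passed the threshold with a term for the set in the model. With 1 mean per cage and diet, 4 means against 5, 0 probes were called in limma, and 989 had an unadjusted p below 0.05, all 45 among them.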

How the data were processed

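Thigh muscle RNA of 40 males, 1 animal per array, was hybridised to Illumina MouseRef-8 v2.0 beadchips. The deposited values are fluorescence intensities on a linear scale, which the authors read with BeadStudio (version not given in the sources used here) and quantile-normalized over all 40 muscle arrays. Quantile normalization gives every array the same distribution, so a change shared by most genes cannot be seen. Of 25697 probes, 23978 carried 1 gene symbol and 1719 none.

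Probes were tested when they lay above their array's median in at least 20 of 40 arrays (12467 probes). Values were log2-transformed without an offset. HF_HF and HF_LF were compared in limma 3.58.1 (R 4.3.3) with lmFit and eBayes with an intensity trend, and p-values were adjusted over all tested probes (Benjamini-Hochberg). The threshold for a call was an adjusted p of 0.05. The brightest probe stood for a gene in list counts. The interaction used all 40 arrays. Body measures were compared with two-sided permutation tests of the means (100000 resamples, or exact for length), adjusted over 5 measures. Named genes were the 12 largest changes in each direction, the 8 smallest p, up to 6 called members of each list, a set of well-known fat and fibre genes, and the 5 smallest interaction p. The groups compared, the gene lists and the tests were chosen with earlier results of these data known. The model was tested on simulated data. Promoters came from RefSeq (GRCm38.p6).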

Additional observations from a re-analysis of the deposited data

Results flagged for a closer look

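Of 220 sets of 10 values checked, 13 held an array that stood apart from the other arrays of its group by Dixon's criterion, 5 for a gene and 8 for a list score. Chance marks about 1 in 20 such sets.

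In HF_HF, replicate 8 had the lowest Cds1 value, at 6.44 on the log2 scale (next lowest 6.67), although HF_HF was the higher group. Replicate 3 had the highest Rasl11b value, at 7.90. Replicate 1 stood highest in the neutrophil score, the mean log2 deviation of the list, at 1.34 against 0.42 in the next array. Replicate 4 stood highest in the smooth muscle and pericyte score at 0.18, and replicate 9 lowest in the score of myogenic factors at -0.10.

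In HF_LF, replicate 7 of cage 23 stood lowest for H4c12 (8.03), for the score of complex I subunits (-0.25) and for the score of branched-chain amino acid breakdown (-0.24). Replicate 1 had the highest Tppp3 value (8.66), and replicate 8 the lowest Ucp3 value (8.43). Replicate 2 stood highest in the lipogenesis and desaturation score (0.49), replicate 9 lowest in the insulin signalling score (-0.14) and replicate 10 highest in the neutrophil score (0.40).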

How the results depend on the processing

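The count of 45 called probes moved with the samples and the model. It was 85 with all 40 arrays in 1 fit, 70 with array weights, 69 with a term for the array set and 29 with no filter on dim probes. It was 3 within the first array set, 1 within the second, 19 within the cages that held both diets and 0 with 1 mean per cage and diet. Without cage 10 it was 23, without cage 12 it was 28, without cage 21 it was 21 and without cage 23 it was 1. Leaving out 1 array gave 10 (HF_LF replicate 5) to 63 (HF_LF replicate 10). Fewer samples entered the fits within sets and without cages, and the other causes were not tested. The further counts stayed within 1.5 times 45, among them 34 without the 3 arrays highest in adipocyte markers, where 15 were higher and 19 lower, and 49 with the adipocyte score as a covariate. These last 2 settings were chosen after seeing the data.

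No change of the 36 called genes named turned its sign under any setting run, while 516 of their values lost the call. These genes were chosen in the same arrays, which favoured a stable sign. Of the named genes that were not called, 5 values gained a call (Plin5, Dhrsx and Angptl4) and 37 values of 5 genes changed sign. The cause was not tested. Leaving out 1 array gave a log2 change of -0.036 to 0.026 for Dhdh, -0.11 to 0.024 for Pdk4, -0.0031 to 0.21 for Trim63 and -0.12 to 0.0034 for Ucp3. Dhdh was -0.0044 with a term for the array set, -0.0028 with the adipocyte score, -0.13 within the second array set, -0.013 within cages, and -0.0034, -0.023 and -0.046 without cages 10, 20 and 21. Myh7 was -0.14 with the slow fibre score, -0.013 within the second array set, -0.23 without cage 23 and -0.013 without the 3 arrays highest in adipocyte markers. Pdk4 was 0.10 with 1 mean per cage and diet, 0.0071 with the adipocyte score, 0.087 within the first array set, and 0.024 and 0.052 without cages 21 and 23. Ucp3 was 0.079 with 1 mean per cage and diet, 0.073 within the first array set, 0.052 within cages, and 0.00094 and 0.065 without cages 21 and 23. Trim63 was -0.016 without cage 10 and -0.0039 without the 3 adipocyte-high arrays. The 0 interaction calls and the body measures held under all settings run for them. No paired analysis was possible because replicate numbers only name animals, in accession order, so the matching to be had was that by cage (the 19 calls above). The number of arrays and the signal of dim probes limit what can be detected, and dim genes such as Cd36 were not tested.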
